A study of Mus musculus with 6 samples.

Results

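Among 11651 marrow cells from mice bearing EMT6 tumors, 89 carried transcripts of both Gata2 and Cd34 while lacking the marks of committed basophil, erythroid, megakaryocyte and granulocyte cells. They numbered 24 of 6394 kept cells in the marrow library labelled Cysltr1 KO and 65 of 5257 in the marrow library labelled WT, out of 43810 kept cells in all 6 libraries of the series. UMIs are unique molecular identifiers, 1 per counted transcript molecule. Kept barcodes had 300 or more genes and 500 or more UMIs, of which no more than 10% were mitochondrial. A member had at least 2 Gata2 UMIs, at least 1 Cd34 UMI, at most 1 UMI of Mcpt8 and Prss34 together, no Klf1, fewer than 5 Pf4 UMIs, and less than 0.1% of its UMIs from Elane and Prtn3. These 8 genes chose the cells, so their values are description only.

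EMT6 is a mouse mammary carcinoma line of BALB/c origin. The animals compared were tumor-bearing Cysltr1 KO mice and tumor-bearing BALB/c WT controls; Cysltr1 encodes a receptor for cysteinyl leukotrienes. Marrow cells were enriched for progenitors with magnetic beads, and each library came from a pool of 3 mice. The kind of Cysltr1 allele, the age of the mice and the time of tumor growth are not given in the sources used here. With 1 library per genotype there is no replicate check, no test was run, and every 95% interval covers counting error only.

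The targeted gene did not follow the labels. Over all kept marrow cells Cysltr1 (chromosome X, 106574346 to 106603679, minus strand, mm10) stood at 24.4 CPM (UMIs of the gene per 1000000 UMIs summed over the cells; interval 23.1 to 25.9) in the library labelled KO and 4.83 CPM (4.34 to 5.35) in the library labelled WT. Spleen ran the same way, with 33.8 CPM labelled KO and 7.04 CPM labelled WT, whereas tumor had 7.59 CPM labelled KO and 9.93 CPM labelled WT. Which part of the gene the reads came from is not stated, so these counts do not check the genotype. An exchange of the libraries was not tested; it would turn the direction of every difference between them, and groups are named below by their labels. The 89 members held 1 Cysltr1 UMI in the library labelled KO and 0 in the library labelled WT. Depth differed as well, with a median of 6521 UMIs per kept cell labelled KO and 13071 labelled WT. The files of the library labelled KO also list 19 antibody features, and those of the library labelled WT list none; what this and the depth add to the differences between the libraries cannot be told apart from genotype. The 2 marrow libraries shared 53 kept barcodes, none of them a member, and 6 member barcodes also occurred in a spleen or tumor library.

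Gata2 is a zinc-finger factor of blood stem cells and early progenitors that remains active in mast cells and basophils, while its relative Gata1 takes over as cells move into the erythroid and megakaryocyte lines. Progenitors that can still form erythroid, megakaryocyte, mast and basophil cells are known to carry low levels of transcripts from more than one of these programs in the same cell, which is called lineage priming. Cd34, a surface sialomucin, marks early progenitor cells of mouse marrow and is lost as they mature.

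Some mast cell genes, and some that mast cells share with basophils, stood above the other marrow cells, so the promoters of 4 of them are shown. Cpa3 encodes the mast cell carboxypeptidase, Ms4a2 and Fcer1a the beta and alpha chains of the high-affinity IgE receptor, and Slc18a2 the transporter that loads histamine and other monoamines into vesicles. Each RefSeq window (GRCm38.p6) runs 5′ to 3′ on the gene's strand from 250 bases before the start to 50 after it. Capitals mark the words AGATAA or the similar AGATAG, and the words TGATAA or the similar TGATAG, on either strand, the core letters that GATA factors are known to bind; matches were sought without regard to overlap.
Cpa3 promoter, chr3:20242132-20242431, minus strand: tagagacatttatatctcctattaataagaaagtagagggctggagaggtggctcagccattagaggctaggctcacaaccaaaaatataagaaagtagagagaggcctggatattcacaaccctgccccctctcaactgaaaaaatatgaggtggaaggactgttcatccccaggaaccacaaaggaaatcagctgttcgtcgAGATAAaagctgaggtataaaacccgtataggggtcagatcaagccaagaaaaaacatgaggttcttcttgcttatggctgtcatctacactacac
Ms4a2 promoter, chr19:11623670-11623969, minus strand: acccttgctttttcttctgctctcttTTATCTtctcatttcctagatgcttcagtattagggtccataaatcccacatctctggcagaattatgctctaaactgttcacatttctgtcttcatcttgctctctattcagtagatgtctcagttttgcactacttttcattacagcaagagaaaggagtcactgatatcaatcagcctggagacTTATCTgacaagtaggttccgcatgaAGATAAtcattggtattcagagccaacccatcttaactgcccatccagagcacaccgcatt
Fcer1a promoter, chr1:173227180-173227479, minus strand: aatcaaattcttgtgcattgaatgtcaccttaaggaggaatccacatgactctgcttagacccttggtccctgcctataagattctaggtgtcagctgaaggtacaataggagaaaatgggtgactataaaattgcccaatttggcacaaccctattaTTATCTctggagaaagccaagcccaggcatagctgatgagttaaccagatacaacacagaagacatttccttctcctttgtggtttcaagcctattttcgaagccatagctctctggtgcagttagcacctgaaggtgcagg
Slc18a2 promoter, chr19:59260628-59260927, plus strand: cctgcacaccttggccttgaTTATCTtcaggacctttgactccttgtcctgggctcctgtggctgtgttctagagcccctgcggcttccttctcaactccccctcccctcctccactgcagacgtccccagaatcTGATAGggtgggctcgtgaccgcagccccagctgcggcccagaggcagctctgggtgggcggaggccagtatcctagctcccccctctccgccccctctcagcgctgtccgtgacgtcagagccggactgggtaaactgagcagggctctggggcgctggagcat
Ms4a2 held 3 matches, Slc18a2 held 2, and Cpa3 and Fcer1a held 1 each. The same letters occurred in 29.8% of 32851 promoter windows. They occurred in 8 of 12 windows of a mast cell list and in 6 of 7 of a list shared by mast cells and basophils. Other lists also exceeded the share of all windows, with 7 of 13 megakaryocyte, 6 of 14 stem and 5 of 12 early erythroid windows. The 20 genes furthest above the other cells had a match in 7 of 18 windows. In these lists several windows can belong to 1 gene. Windows of Gata2, Gata1 and Meis1 had no match. A match is a description of the sequence and says nothing about whether a factor was bound there.

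The rule left cells close to its edges on every side. In the library labelled KO, 12 of 24 members had exactly 2 Gata2 UMIs and the highest had 10; in the library labelled WT, 23 of 65 had exactly 2 and the highest had 12. Another 28 cells labelled KO and 43 labelled WT had 1 Gata2 UMI and met all else. Cd34 alone kept out 46 cells labelled KO and 57 labelled WT. The summed share of Elane and Prtn3, serine proteases of granulocyte precursors, reached 0.095% of UMIs in members labelled KO and 0.099% in members labelled WT, and the nearest cells outside had 0.104% and 0.102%. Of the cells with 2 or more Gata2 UMIs, 449 labelled KO and 648 labelled WT, most were lost to the Cd34, basophil protease and Elane limits.

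The name under which these cells were proposed, Gata2 erythroid-megakaryocyte-mast primed progenitors, was checked against its markers. Apoe and Cpa3 stood above the other marrow cells, but Car1, an early erythroid carbonic anhydrase, went against the name. Car1 was at 79.4 CPM in members and 242 CPM in other cells of the library labelled KO, and at 31.4 CPM in members and 123 CPM in other cells of the library labelled WT. Only 1 of 24 and 6 of 65 members had any Car1 UMI, and 1 member held all 14 Car1 UMIs of the library labelled KO. Since Car1 was low in them, the members are called Gata2+Cd34+ cells here. Cells that met all else but lacked Cd34 had more Car1, at 269 CPM labelled KO and 300 CPM labelled WT.

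Across 2932 genes with enough counts, 173 (5.9%) were at least 2-fold higher and 81 (2.76%) at least 2-fold lower in the Gata2+Cd34+ cells than in all other kept marrow cells of the same library, in both libraries. Because the cells were picked from the same counts, these ratios describe the cells and are not tests. Apoe, a lipid transport protein also made by early blood progenitors, led the list. It stood at 867 CPM in members and 75.6 CPM in other cells labelled KO, and at 823 CPM in members and 71.9 CPM in other cells labelled WT, a log2 ratio of 3.50 in each. Members held 0 to 16 Apoe UMIs, median 6, in the library labelled KO and 0 to 55, median 6, in the library labelled WT, so some members had none while others were rich in it.

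Stem and multipotent genes were high. The list summed to 612 CPM in members and 149 CPM in other cells labelled KO (ratio 4.11, interval 3.36 to 4.97), and to 886 CPM in members and 187 CPM in other cells labelled WT (ratio 4.73, 4.35 to 5.12). Of its 14 genes, 6 were at least 2-fold higher in both libraries and 0 lower. All 12108 genes with 100 marrow UMIs gave 6.04% higher and 7.8% lower. The same shares are the background of the list counts in the paragraphs that follow. Meis1, a homeobox partner of HOX proteins, was at 125 CPM in members and 12.0 CPM in other cells labelled KO, and at 133 CPM in members and 16.0 CPM in other cells labelled WT. Adgrg1, an adhesion receptor used to mark stem cells, was at 210 and 35.9 CPM in members and other cells labelled KO, and at 277 and 43.3 CPM in members and other cells labelled WT. Procr, Ly6a and Fgd5, which mark the most primitive stem cells, were at 0 in members labelled KO and at 12.8, 5.71 and 1.43 CPM in members labelled WT. At this depth the exact interval of a count of 0 labelled KO reaches 20.9 CPM, so their absence cannot be read there. Mecom, a zinc-finger factor of stem cells, was at 11.3 CPM in members and 2.28 CPM in other cells labelled KO, and at 34.2 CPM in members and 4.21 CPM in other cells labelled WT.

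The mast cell list was about as far above the other cells, on the strength of few genes. Of its 11 genes 4 were 2-fold higher in both libraries and 0 lower. It summed to 760 CPM in members and 189 CPM in other cells labelled KO (ratio 4.01, 3.36 to 4.76), and to 494 CPM in members and 154 CPM in other cells labelled WT (ratio 3.20, 2.87 to 3.56). Slc18a2 was at 142 CPM in members and 8.70 CPM in other cells labelled KO, and at 95.6 CPM in members and 10.1 CPM in other cells labelled WT. Cpa3 was at 352 and 165 CPM in members and other cells labelled KO, and at 267 and 130.5 CPM in members and other cells labelled WT; basophils among the other cells also carry it. Fcer1a was at 215 CPM in members and 61.7 CPM in other cells labelled KO. In the library labelled WT it was at 201 CPM in members and 52.0 CPM in other cells. The list shared by mast cells and basophils, which holds Fcer1a, was at 2.19 and 2.14 times the other cells labelled KO and WT. A separate basophil list was at 0.111 and 0.387, with 0 of 5 genes higher and 1 lower in both libraries. The rule itself limits the basophil proteases Mcpt8 and Prss34. The granule proteases of mature mast cells, Mcpt1, Mcpt4, Tpsb2 and Tpsab1, and Tph1, which makes serotonin, were at 0 in all members, so of the mast program mainly early genes were present.

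The erythroid program was divided. Of its regulators, Gata1 and Zfpm1 were high, while Klf1 was at 0 by the rule. Gata1 was at 102 CPM in members and 24.6 CPM in other cells labelled KO. In the library labelled WT it was at 79.9 CPM in members and 16.1 CPM in other cells. Zfpm1, the FOG1 cofactor that GATA1 needs, was at 102 and 26.5 CPM in members and other cells labelled KO, and at 74.2 and 20.03 CPM in members and other cells labelled WT. The early erythroid list as a whole was near the level of the other cells, with a ratio of 0.842 (0.703 to 1.001) labelled KO and 1.07 (0.967 to 1.19) labelled WT; 4 of its 13 genes were 2-fold higher and 2 lower in both libraries. The late list of globins, heme synthesis and membrane genes was at 0.222 and 0.279 of the other cells labelled KO and WT. The rule itself leaves out cells with Klf1, a factor that drives globin genes. Members had 0 UMIs of 3 of the 4 globin genes and 1 UMI of Hbb-bs in all.

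Megakaryocyte genes were present at a similar, low grade. The list stood at 1.23 (0.938 to 1.58) times the other cells labelled KO and 1.41 (1.24 to 1.59) times labelled WT, with 3 of 18 genes 2-fold higher and 4 lower in both libraries. Itga2b, the platelet integrin chain, was at 56.7 CPM in members and 27.3 CPM in other cells labelled KO, and at 85.6 CPM in members and 28.2 CPM in other cells labelled WT, and so stood above the other cells in both. Clec1b and Gp6, platelet collagen and podoplanin receptors, were at 0 in members of both libraries. Granulocyte-monocyte genes were low, at 0.0791 and 0.0819 of the other cells labelled KO and WT; the rule itself limits Elane and Prtn3.

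**Figure D1:**
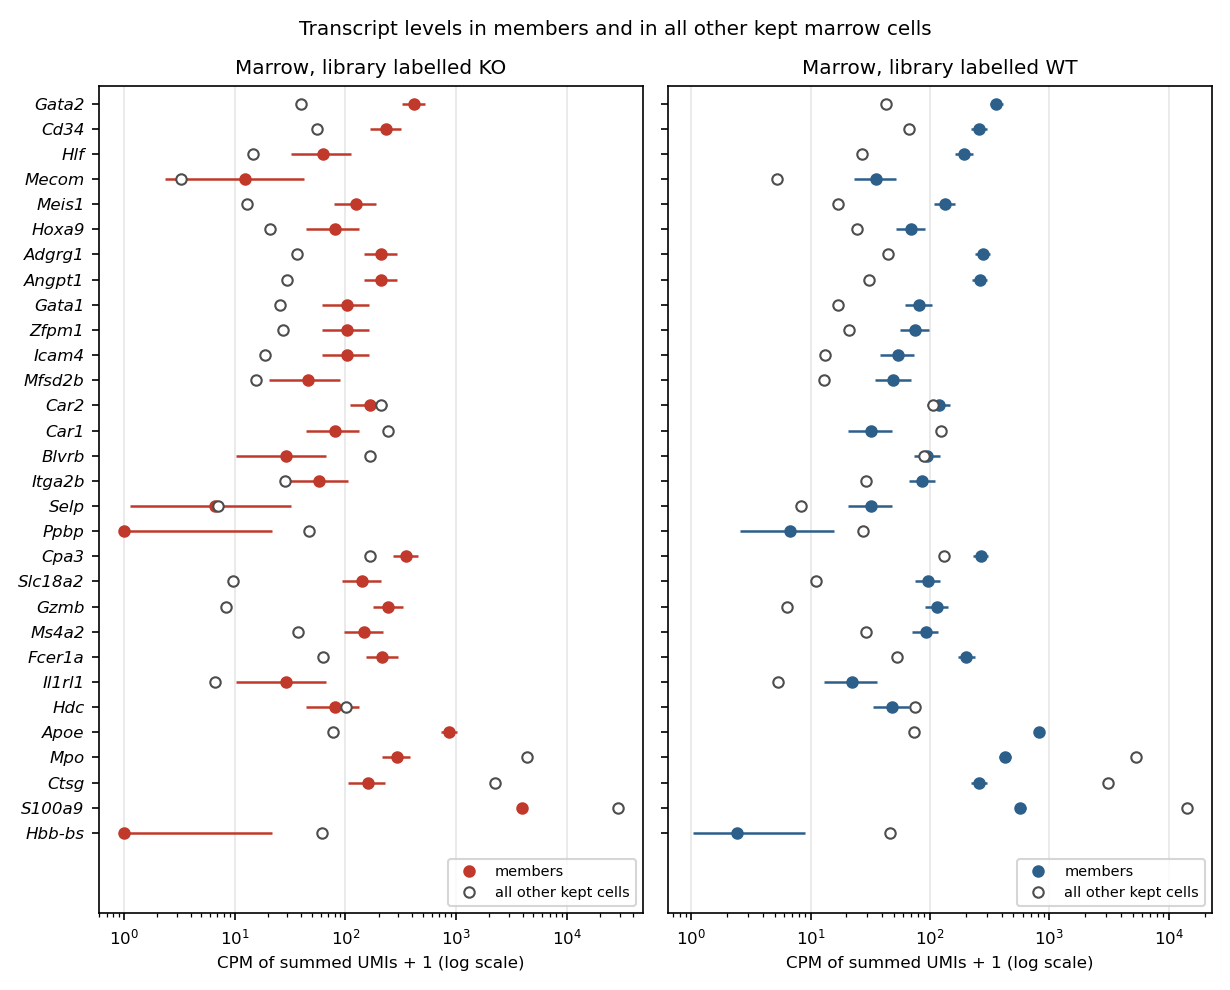
Levels of 30 genes as CPM of summed UMIs plus 1 on a log axis, in Gata2+Cd34+ members (filled points, lines are exact Poisson 95% intervals) and in all other kept marrow cells (open points), for the library labelled KO on the left and the library labelled WT on the right. Gata1, Zfpm1, Meis1, Slc18a2 and Apoe lie to the right of the other cells in both libraries, Car1 (79.4 and 242 CPM labelled KO) to the left.

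**Figure D2:**
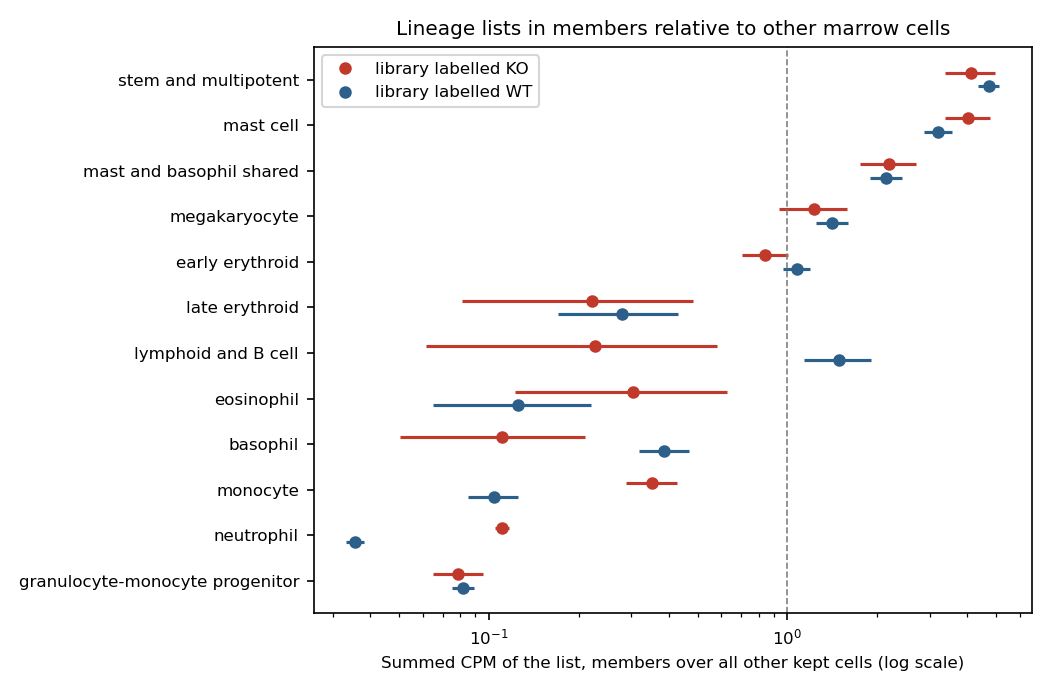
Summed CPM of each lineage list in members over all other kept marrow cells, log axis, with exact 95% counting intervals; red is the library labelled KO and blue the library labelled WT. The stem list (4.11 and 4.73) and the mast cell list (4.01 and 3.20) lie well above 1 in both libraries, and the granulocyte-monocyte list (0.0791 and 0.0819) lies well below it.

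Beyond these lists, the genes furthest above the other cells in both libraries included Slc22a3, a carrier of organic cations such as histamine, at 90.7 CPM in members and 9.04 CPM in other cells labelled KO, and at 72.8 CPM in members and 7.41 CPM in other cells labelled WT. Angpt1, the ligand of the Tie2 receptor, was at 210 and 28.6 CPM in members and other cells labelled KO, and at 260 and 29.8 CPM in members and other cells labelled WT. Ctla2a, an inhibitor of cathepsin L type proteases, was abundant as well, at 629 and 80.4 CPM in members and other cells labelled KO, and at 909 and 103 CPM in members and other cells labelled WT. Gnb4, Mc5r, Sdsl, Csrp3, Rbpms, Mdga1, Slc7a8, Myct1, H1fx, Ctla2b, Spns2 and Serpina3g were also among the 20 leading genes. The 10 lowest were Pglyrp1, Mpo, Ctsg, S100a9, Dstn, Ly6c2, Cd52, S100a6, Serpinb1a and Anxa1, all abundant in granulocytes or monocytes.

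Among factors that act in these lineages, 10 of 24 were 2-fold higher and 4 lower in both libraries. Tal1, a partner of GATA factors, was at 73.7 CPM in members and 18.2 CPM in other cells labelled KO, and at 48.5 CPM in members and 16.9 CPM in other cells labelled WT. Runx1, needed to form stem cells and platelets, was at 283 and 93.6 CPM in members and other cells labelled KO, and at 224 and 98.2 CPM in members and other cells labelled WT. Cebpe, a factor of late granulocyte maturation, was at 0 in members of both libraries, against 126 CPM in other cells labelled KO and 109 CPM in other cells labelled WT. Of 16 growth factor receptors 5 were higher and 2 lower in both; Kit, the stem cell factor receptor on which mast cells depend, was at 119 and 33.3 CPM in members and other cells labelled KO, and at 134 and 40.6 CPM in members and other cells labelled WT. Epor, the erythropoietin receptor, had 3 UMIs in members labelled KO and 6 in members labelled WT.

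Lineage priming was then read within single cells. At least 1 UMI each of the early erythroid, megakaryocyte and mast or basophil lists occurred together in 12 of 24 members labelled KO (50%, 29.1 to 70.9) and in 43 of 65 labelled WT (66.2%, 53.4 to 77.4). Among other kept cells the shares were 11.4% labelled KO and 25.5% labelled WT. Thinning every cell to 5000 UMIs, which removed shallower cells, gave 8 of 18 members (44.4%) and 6.34% of other cells labelled KO, and 30 of 60 members (50%) and 7.996% of other cells labelled WT. Neutrophil-type cells, defined by at least 10% of UMIs from neutrophil genes, should lack these programs and served as background for free RNA: 3.54% labelled KO and 2.95% labelled WT at the same depth. Their median depth before thinning was 3294.5 UMIs labelled KO and 8902 labelled WT, against 6666.5 and 10160 UMIs in members.

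Counting 6 programs, with stem, granulocyte-monocyte and lymphoid lists added, at least 3 were detected in 22 of 24 members labelled KO (91.7%) and in all 65 labelled WT (100%), against 54.3% of other cells labelled KO and 76.8% labelled WT. At 5000 UMIs the shares were 83.3% of members and 42.0% of other cells labelled KO, and 98.3% of members and 49.0% of other cells labelled WT. Neutrophil-type cells had 24.4% labelled KO and 31.9% labelled WT at that depth. The granulocyte-monocyte list was found in 88.9% of thinned members labelled KO and 76.7% labelled WT. In neutrophil-type cells it was found in 96.1% and 96.2%. Mpo, the granulocyte peroxidase, had a UMI in 66.7% of thinned members labelled KO and 56.7% labelled WT. The shares in neutrophil-type cells were 67.2% and 67.9%. Those cells are of the granulocyte line and held 2098 CPM of Mpo labelled KO and 2695 CPM labelled WT. They therefore give no free RNA background for granulocyte genes, and that part was not tested. Gata1 was well above the share of neutrophil-type cells, in 33.3% of thinned members labelled KO and 30% labelled WT against 1.01% and 0.211%. So was Fcer1a, in 44.4% and 30% against 2.02% and 2.74%.

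Single cells showed how the programs met. Gata1 and Fcer1a were found together in 6 of 24 members labelled KO and 20 of 65 labelled WT. One such cell of the library labelled WT held 7 Gata2, 22 Apoe, 3 Gata1, 8 Itga2b, 12 Cpa3 and 7 Fcer1a UMIs together, the last 3 being genes of the platelet integrin, the mast carboxypeptidase and the IgE receptor. A cell of the library labelled KO held 3 Gata2, 13 Apoe, 1 Gata1, 1 Itga2b, 12 Cpa3 and 9 Fcer1a UMIs. Both cells were picked after their values were seen, as examples of co-detection.

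The members were not uniform. Hlf, a PAR-bZIP factor of stem cells, and the IgE receptor genes served to divide them. Taking any Hlf UMI and at least 2 UMIs of Fcer1a and Ms4a2 together, a division chosen after the values were seen, gave 4 members with Hlf alone, 0 with both, 11 with Fcer1a or Ms4a2 alone and 9 with neither in the library labelled KO. The library labelled WT had 26 with Hlf alone, 9 with both, 13 with Fcer1a or Ms4a2 alone and 17 with neither. The exact intervals of these 4 class shares overlap between the libraries, the classes depend on depth, and a difference in make-up was not tested.

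In the library labelled WT the Hlf-alone cells had the least Apoe, Gata1, Itga2b and Cpa3 of the 4 classes. There they had 175 CPM of Apoe, 20.8 CPM of Gata1 and 8.90 CPM of Cpa3, and 5 of 26 had a UMI of Dntt, the terminal transferase of lymphoid progenitors; 2 of the 5 were barcodes rich in immunoglobulin or neutrophil RNA. Cells with Fcer1a or Ms4a2 alone had 1416 CPM of Apoe, 133 CPM of Gata1 and 501 CPM of Cpa3, and none had Dntt. Cells with neither had 1382 CPM of Apoe, 137 CPM of Gata1, 372 CPM of Cpa3 and 152 CPM of Zfpm1, and 5 of 17 had Car1. Cpa3 was found in 5 of these 17, 1 of them with 41 UMIs, and an Fcer1a UMI in 6. In the library labelled KO the 11 cells with Fcer1a or Ms4a2 alone had 1364 CPM of Apoe, 153 CPM of Gata1 and 739 CPM of Cpa3, and the 9 with neither had 523, 65.4 and 26.1 CPM of the same genes. In both libraries Apoe, Gata1 and Cpa3 were thus higher in cells with IgE receptor genes than in cells with Hlf alone, which in the library labelled KO had 280, 46.7 and 93.3 CPM. There were only 4 such cells labelled KO, and 1 of them was rich in neutrophil RNA.

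Gzmb, a granzyme that mast cells can also make, belonged to few cells. It was found in 2 members labelled KO, with 34 and 9 UMIs, and in 4 labelled WT, with 37, 31, 8 and 3 UMIs. All 6 also had Cpa3, and the 3 richest in Gzmb had 15, 37 and 41 Cpa3 UMIs. The 2 and 4 cells held 43.5% of the Cpa3 UMIs of members labelled KO and 44.9% of those labelled WT, so a large part of the Cpa3 level rests on 6 of 89 cells.

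**Figure D3:**
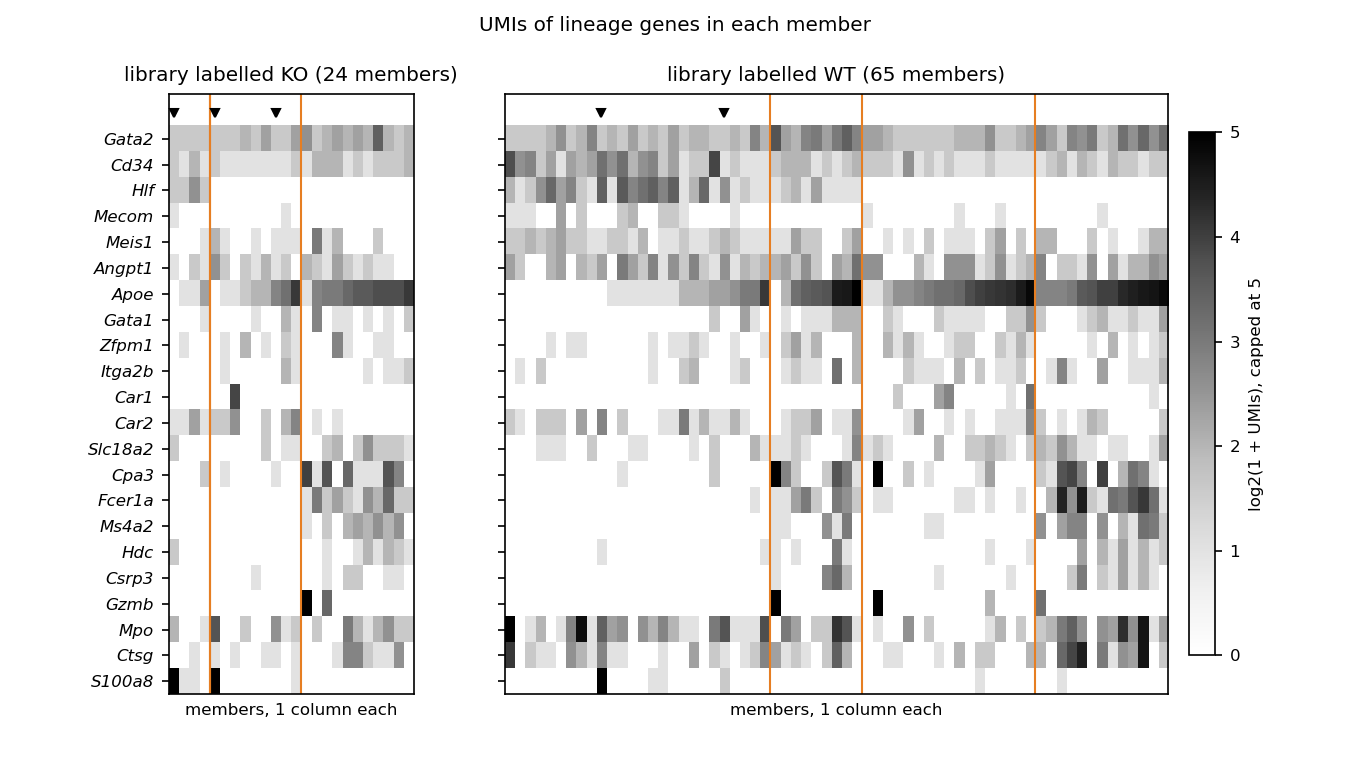
UMIs of 22 genes in each of the 24 members labelled KO (left) and 65 labelled WT (right), 1 column per cell, shown as log2(1 + UMIs) and capped at 5. Orange lines divide, from left, cells with Hlf alone, with Hlf and Fcer1a or Ms4a2, with neither, and with Fcer1a or Ms4a2 alone; triangles mark the 5 barcodes rich in neutrophil, monocyte or immunoglobulin RNA, and within each block cells are ordered by Apoe.

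Cells just outside the rule placed the members among their neighbours. Failing by Cd34 alone were 46 cells labelled KO and 57 labelled WT, which shared some traits of the members. Apoe was at 1031 and 918 CPM there, against 867 and 823 CPM in members labelled KO and WT. Zfpm1 was at 142 and 145 CPM, against 102 and 74.2 CPM. Car1 was higher than in members, at 269 and 300 CPM against 79.4 and 31.4 CPM. Cpa3 was lower, at 149 and 64.5 CPM against 352 and 267 CPM. Fcer1a, Ms4a2 and Slc18a2 were also lower. Several other genes high in members were about as high in these cells. Angpt1 was at 336 and 247 CPM against 210 and 260 CPM. Ctla2a was at 643 and 821 CPM against 629 and 909 CPM. Adgrg1 was at 258 and 245 CPM against 210 and 277 CPM. Slc22a3 was at 82.2 and 84.5 CPM against 90.7 and 72.8 CPM. Kit was at 120 and 120 CPM against 119 and 134 CPM. High levels of these genes, and of Apoe and Zfpm1, were thus not particular to the members. Cells that failed by basophil proteases alone, 33 labelled KO and 64 labelled WT, had 4241 and 3726 CPM of Cpa3 and 1482 and 1522 CPM of Fcer1a, far above the members, with 12.1 and 15.3 CPM of Hlf. Cells that failed by Pf4, the platelet chemokine, had 432 and 673 CPM of Itga2b and at most 22.7 CPM of Cpa3, from 4 cells labelled KO and 18 labelled WT. Cells that failed by Klf1, the erythroid factor that drives globin genes, had 2547 CPM of Car1 in 4 cells labelled KO and 298 CPM in 21 labelled WT. Cells that failed by Gata2 alone numbered 171 labelled KO and 148 labelled WT, of which 28 and 43 had 1 Gata2 UMI. They were richer in Flt3, a receptor of lymphoid-primed progenitors, at 173 and 158 CPM against 5.67 and 32.8 CPM in members. The groups are defined by failing these criteria, so these levels describe them and test nothing.

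Outside marrow the rule found almost nothing. It was met by 0 of 8257 kept spleen cells labelled KO and 1 of 8962 labelled WT, and by 0 of 6341 kept tumor cells labelled KO and 1 of 8599 labelled WT. The exact interval of a count of 0 reaches a share of 0.0447% in spleen and 0.0582% in tumor labelled KO.

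The libraries differed in how many such cells they held. Members made up 0.375% (0.241 to 0.558) of kept cells labelled KO and 1.24% (0.956 to 1.57) labelled WT, a ratio of 0.304 (0.182 to 0.492). The rule needs at least 3 UMIs of low-level genes, and cells labelled KO were shallower, so the rule was applied again to cells thinned to equal depth. At 5000 UMIs it found 10 of 3819 cells labelled KO (0.262%) and 29 of 4262 labelled WT (0.680%), a ratio of 0.385 (0.167 to 0.812). At 2000 UMIs it found 4 of 5606 and 8 of 4791, a ratio of 0.427 whose interval of 0.0942 to 1.60 includes 1. Shares are of progenitor-enriched cells, and the part that the enrichment and the number of neutrophils in each library play was not tested; cells with at least 10% neutrophil UMIs numbered 1814 labelled KO and 667 labelled WT.

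**Figure D4:**
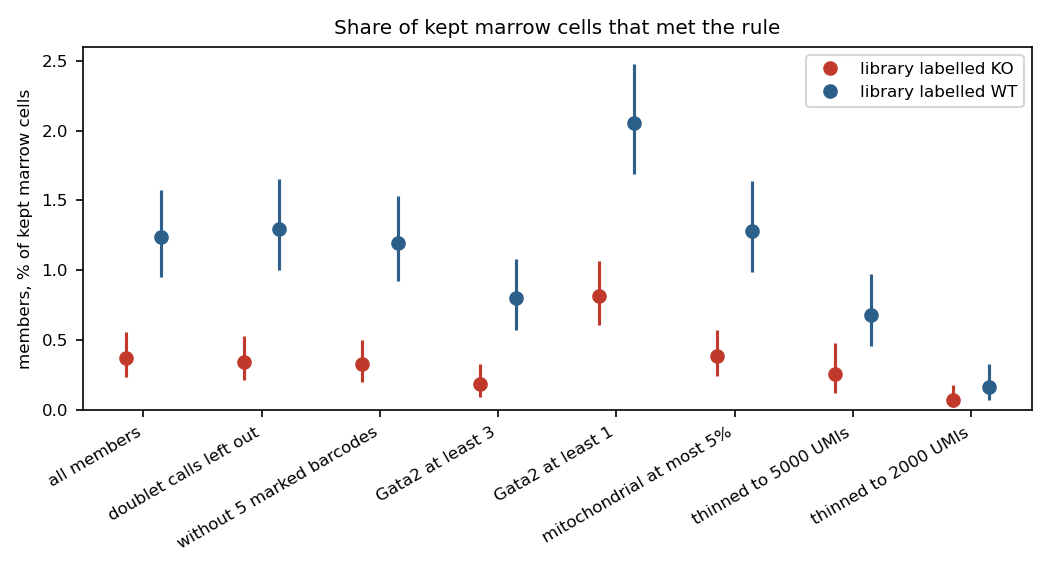
Members as a percentage of kept marrow cells in the library labelled KO (red) and labelled WT (blue), with exact Clopper-Pearson 95% intervals, for the rule as given and for each alternative. The library labelled KO is lower throughout; the intervals overlap after thinning to 5000 and to 2000 UMIs.

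Before levels were compared between the libraries, 5 of the 89 barcodes were set apart because they held RNA of another cell type. In the library labelled KO, 2 had 7.79% and 5.80% of UMIs from neutrophil genes and 1 had 0.593% from monocyte genes, and all 3 were called doublets. In the library labelled WT, 1 had 61.6% of its 34480 UMIs from immunoglobulin genes and 1 had 4.23% from neutrophil genes, and neither was called a doublet. They held 425 of the 428 S100a8 UMIs of members labelled KO and 296 of the 300 labelled WT. Log2 ratios without them are given beside the differences below, an alternative added after the data were seen.

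Of 1231 genes with at least 100 UMIs and a mean of 50 CPM in members, 25 (2.03%) were at least 1.5-fold higher and 23 (1.87%) at least 1.5-fold lower in the library labelled KO with intervals that did not overlap. Without the 5 barcodes it was 10 (0.905%) higher and 15 (1.36%) lower of 1105, with 9 higher and 10 lower shared with the first count. The median log2 ratio of the tested genes was 0.06, and TMM scaling moved it by -0.14 and gave 15 higher and 47 lower. Among members thinned to 5000 UMIs it was 11 (2.24%) higher and 14 (2.85%) lower of 492. All log2 ratios are of CPM plus 1.

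Hlf had the lowest ratio of the genes named by the rule. It was found in 4 of 24 members labelled KO, with 2, 2, 2 and 5 UMIs, and in 35 of 65 labelled WT, with a median of 1 and a highest of 11 UMIs. Members with none were thus the majority in the library labelled KO only. Its level was 62.4 CPM (31.1 to 112) labelled KO and 191 CPM (160 to 226) labelled WT, a log2 ratio of -1.60, and -1.53 without the 5 barcodes. The share of cells with Hlf was 16.7% (4.74 to 37.4) labelled KO and 53.8% (41.0 to 66.3) labelled WT, without the 5 barcodes 14.3% and 52.4%, and at 5000 UMIs 11.1% and 41.7%, against 2.19% and 3.38% of neutrophil-type cells. The difference was not confined to these cells: other kept marrow cells had 13.7 CPM labelled KO and 25.8 CPM labelled WT (log2 ratio -0.86), and the cells that missed the rule by 1 criterion, 290 labelled KO and 388 labelled WT, had 86.2 and 112 CPM (-0.38). Whether the ratio in members differs from that in the other cells was not tested. In the library labelled WT 12 members with 5 or more Hlf UMIs held 95 of its 134 UMIs, and none of the 12 had Gata1 or Fcer1a.

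Other stem genes were mixed. Meis1 was at 125 CPM labelled KO and 133 CPM labelled WT, with a ratio interval of 0.562 to 1.51, and Adgrg1 at 210 and 277 CPM, with a ratio interval of 0.518 to 1.08; their log2 ratios without the 5 barcodes were -0.13 and -0.34. Sparser genes lay further apart, with wide intervals: Mecom had 2 UMIs labelled KO and 24 labelled WT (ratio 0.331, 0.0379 to 1.33), Flt3 had 1 and 23 (ratio 0.173, 0.00419 to 1.06), and Procr 0 and 9. Of the 7 genes of the stem list with 30 or more UMIs, 0 were 1.5-fold higher and 2 lower, with a median log2 ratio of -0.40, where all 4182 such genes gave 11.1% higher, 12.5% lower and a median of 0.05. Without the 5 barcodes the stem list had 0 higher and 1 lower, where 3908 genes gave 9.72% higher and 14.5% lower. Hlf and Mllt3 were the 2 lower ones.

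Some immediate early and heat shock genes, which cells switch on within minutes of stimulation or handling, were lower in the library labelled KO. Of 13 measured, 0 were 1.5-fold higher and 5 lower, against 12.5% lower of all 4182 genes, with a median log2 ratio of -0.51. Without the 5 barcodes 4 were lower, against 14.5% of all genes. Jun, Ier2, Hspa8 and Hsp90aa1 were closer, with ratios of 0.855, 0.879, 0.849 and 0.918. Fosb, an AP-1 subunit, was at 323 CPM labelled KO and 883 CPM labelled WT, a log2 ratio of -1.45 and -1.25 without the 5 barcodes; in other kept cells it was at 125 and 198 CPM (-0.66). Junb, its partner, was at 533 CPM labelled KO and 984 CPM labelled WT (-0.88, and -0.84 without the barcodes), and Dnajb1, an HSP40 cochaperone, at 130 and 267 CPM (-1.03 and -1.13). Summed over the 15 genes of the list, members stood at 11617.5 CPM labelled KO and 15555.7 CPM labelled WT, a gap wider than that of 6734 and 7334 CPM in other kept cells. Klf2, a factor of resting cells, was at 352 CPM labelled KO and 785 CPM labelled WT (-1.16, and -1.20 without the barcodes), and Smad7, an inhibitor of TGF-beta signalling, at 85.1 and 180 CPM (-1.07). The part of cell handling in these levels was not tested.

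A further 3 genes named by the rule were lower in the library labelled KO. Elf2, an ETS factor, was at 56.7 CPM labelled KO and 144 CPM labelled WT. Hdlbp, an RNA-binding protein, was at 56.7 and 131 CPM, and Krt18, a keratin, at 68.0 and 147 CPM. Without the 5 barcodes Krt18 still met the call, at a log2 ratio of -1.31, and Elf2, Hdlbp and Smad7 did not, although their log2 ratios of -1.09, -1.12 and -0.95 kept their direction.

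Genes higher in the library labelled KO divided by whether they rested on the 5 barcodes. S100a10, a partner of annexin A2, was at 646 CPM labelled KO and 321 CPM labelled WT, and Lmo4, a LIM-domain adaptor of transcription factors, at 590 and 308 CPM; their log2 ratios of 1.01 and 0.93 were 1.03 and 1.07 without the barcodes. Lars2, the mitochondrial leucyl-tRNA synthetase, was at 1434 and 706 CPM, and Cdca8, a mitotic centromere protein, at 238 and 133 CPM. Both kept the call without the barcodes, with log2 ratios of 1.27 and 1.05, but among cells with at least 3 Gata2 UMIs the log2 ratio of Lars2 was -0.33. Glo1, the glyoxalase, was at 210 CPM labelled KO and 110 CPM labelled WT, with a log2 ratio of 0.93 and 1.01 without the barcodes; other kept cells stood at 239 and 111 CPM. H1f0, a linker histone, was at 187 and 99.9 CPM, a log2 ratio of 0.90. Without the barcodes its log2 ratio was 1.10, yet it no longer met the call. It held 33 and 70 UMIs, close to the minimum of 100, so the lost call does not show that it rested on the barcodes. Fcer1g, the shared Fc receptor gamma chain, was at 386 CPM labelled KO and 146 CPM labelled WT, a log2 ratio of 1.40 that was 0.53 without the barcodes. Psap, the saposin precursor, had 0.85 with them and -0.50 without, Tmsb4x, an actin-binding peptide, 0.80 and 0.22, and Smdt1, of the mitochondrial calcium channel, 1.04 and 0.74. Neutrophil genes were also among those called higher, S100a9 at 3941 CPM labelled KO and 572 CPM labelled WT, with 688 of 695 and 376 of 401 UMIs in the same 5 barcodes.

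Genes of the lineage programs were set side by side as well. Cpa3 was at 352 CPM labelled KO and 267 CPM labelled WT, with a ratio interval of 0.972 to 1.76, and its log2 ratio was 0.40 with the 5 barcodes and 0.56 without. Fcer1a was at 215 and 201 CPM (0.728 to 1.54), Gata1 at 102 and 79.9 CPM (0.707 to 2.21), and Apoe at 867 and 823 CPM (0.876 to 1.26), with log2 ratios without the barcodes of 0.28, 0.54 and 0.21. These intervals include equal levels, which does not show that the levels were equal. Mpo and Ctsg were at 289 and 159 CPM labelled KO and at 428 and 257 CPM labelled WT. Their ratio intervals were 0.492 to 0.912 and 0.400 to 0.924, with log2 ratios without the barcodes of -0.98 and -0.55. How much of either was free RNA was not tested. Gzmb met the call at 244 CPM labelled KO and 113 CPM labelled WT, but among cells thinned to 5000 UMIs its log2 ratio was -0.52. Its log2 ratio was 1.11 with the 5 barcodes and 1.29 without. The cell richest in Gzmb had 3027 UMIs in the library labelled KO, too few for thinning, and 5092 in the library labelled WT. Car1 was higher in the library labelled KO through 1 cell, with a log2 ratio of 1.31 and 1.499 without the barcodes. The mast list had a median log2 ratio of 0.56 over 3 genes (0.63 without the 5 barcodes) and a summed ratio of 1.55 (1.26 to 1.91). Of the 130 UMIs summed labelled KO, 1 cell gave 34 of Gzmb and 15 of Cpa3. Of the 333 labelled WT, 1 cell gave 37 of each gene and another gave 31 and 41. The interval covers counting error only and not such uneven cells. The early erythroid list had a median of 0.45 over 7 (0.63 without), and the granulocyte-monocyte list one of -0.44 over 4 (-0.35 without) with a summed ratio of 0.693 (0.551 to 0.863).

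**Figure D5:**
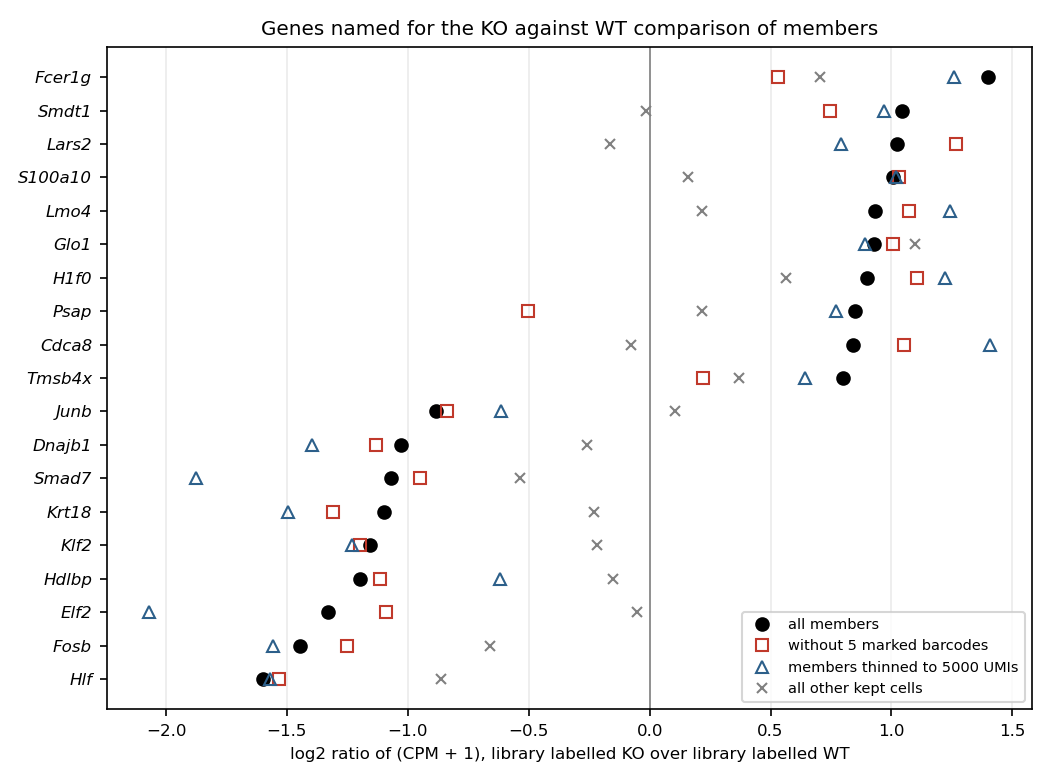
Log2 ratio of CPM plus 1, library labelled KO over library labelled WT, for 19 genes named by the rule: all members (black points), members without the 5 marked barcodes (red squares), members thinned to 5000 UMIs (blue triangles) and all other kept marrow cells (grey crosses). Hlf stays between -1.60 and -1.53 in the 3 member sets, while Psap changes sign and Fcer1g is at 0.53 without the 5 barcodes.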

How the data were processed

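Single-cell RNA libraries of marrow, spleen and tumor were deposited by the authors as matrices of UMI counts per gene and barcode, 1 library per tissue and genotype. The files of the marrow library labelled KO and of both tumor libraries also list 19 antibody features, which were left out; those of the marrow library labelled WT list none, so the 2 marrow libraries were not prepared or processed in exactly the same way. Cell Ranger 6.0.0 and mm10 are named in the submitters' processing notes, whereas the file headers name version 6.1.0, and the labels name both 5′ and 3′ chemistry, which could change which part of a transcript was counted. The members and gene lists were chosen with earlier results of these data known. Counts were summed per library and expressed as CPM. Members were compared with other kept cells at 2-fold in both libraries. The library labelled KO was set against that labelled WT at 1.5-fold with exact Poisson intervals apart (95%), over genes with at least 100 UMIs and a mean of 50 CPM. No p-value was computed. Named genes were the 20 highest and 10 lowest by the smaller of the per-library ratios, among genes with a mean of 50 CPM and a UMI in 10% of members. Between libraries they were the 10 highest and 10 lowest calls that also passed 1.5-fold after thinning to 5000 UMIs and reached 20% of the level of other cells in both libraries; ribosomal, mitochondrial, immunoglobulin and sex-linked genes were not named. List genes are given besides. Doublets were scored per library against simulated pairs, at 0.8% per 1000 barcodes, and kept in the main result. The division by Hlf and the IgE receptor genes, and the values without 5 barcodes rich in other cells' RNA (0.5% of UMIs from neutrophil or monocyte genes or 5% from immunoglobulin genes), were chosen after values were seen. Depth was 176372 UMIs over the members labelled KO and 700967 over those labelled WT. The exact interval of a count of 0 thus reaches 20.9 and 5.26 CPM. The code was tested on simulated data. Tools were python 3.11.15, numpy 2.4.6, scipy 1.17.1, pandas 2.3.3, scikit-learn 1.9.0 and, for TMM scaling, edgeR 4.0.16. A few genes that the rule names are not reported here.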

Additional observations from a re-analysis of the deposited data

How the results depend on the processing

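The lower share of members in the library labelled KO kept its direction under every alternative run, with ratios from 0.235 to 0.427. Mixed lineage detection in members labelled KO went to 100% with at least 3 Gata2 UMIs. Genes 2-fold higher in members numbered 820 and lower 507 without the level filter, and 328 were higher without ribosomal and mitochondrial genes. Genes higher in the library labelled KO numbered 15 without doublets, 15 with at least 3 Gata2 UMIs, 10 without the 5 marked barcodes, 11 after thinning to 5000 UMIs, 118 without the level filter and 15 under TMM scaling. Genes lower there numbered 9 with at least 3 Gata2 UMIs, 15 without the marked barcodes, 14 after thinning, 45 without the filter and 47 under TMM scaling. Lists with a median past 1.5-fold numbered 2 with at least 1 Gata2 UMI and 1 after thinning. The neutrophil list reversed to a log2 median of -4.29 without doublets, and Lars2 to -0.33 with at least 3 Gata2 UMIs. The doublet setting left out the 3 marked barcodes labelled KO, which held 425 of 428 S100a8 UMIs. It kept the 2 marked barcodes labelled WT, which held 296 of 300. Psap reversed to -0.49 without doublets, -0.38 with at least 3 and -0.27 with at least 1 Gata2 UMI, and -0.50 without the marked barcodes. Fewer cells or genes enter most of these settings; the cause of other moves was not tested. Of the values of named genes between libraries, 189 kept their place, 26 moved and 5 reversed. No paired analysis was possible because each genotype had 1 library, and no library could be left out for the same reason. Depth limits the library labelled KO most, where 24 members held 176372 UMIs.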

Other observations

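Of 12 genes that make and sense leukotrienes, 0 were 2-fold higher and 3 lower in members of both libraries. Over all 12108 genes with 100 marrow UMIs, 6.04% were higher and 7.8% lower. The list, which includes the targeted gene, stood at 618 CPM in members and 1419 CPM in other kept cells labelled KO, and at 496 CPM in members and 1175 CPM in other kept cells labelled WT. Alox5ap, the helper protein of 5-lipoxygenase, made up most of it, at 476 CPM in members and 949 CPM in other cells labelled KO, and at 359.5 CPM in members and 766 CPM in other cells labelled WT. Ltc4s, the synthase of leukotriene C4, had 1 UMI in members labelled KO and 19 in members labelled WT, where it was at 27.1 CPM in members and 3.44 CPM in other cells. Cysltr2, the second receptor, had 0 UMIs labelled KO and 1 labelled WT.

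Genes of MHC class I, which present peptides to T cells, stood at 3895 CPM in members and 3154 CPM in other cells labelled KO, and at 4353 CPM in members and 2630 CPM in other cells labelled WT. Of 14 S phase genes 0 were 2-fold higher and 1 lower in members of both libraries. Of 16 genes of G2 and M phase 0 were higher and 0 lower. All 12108 genes with 100 marrow UMIs gave 6.04% higher and 7.8% lower. These ratios describe cells picked from the same counts and were not tested.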
